A study of Rattus norvegicus with 11 samples.

Results

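The rows described here are the 377 numbered features, of 45220 on the array (0.834%), whose ratio to a common reference was highest in hippocampi of stimulated rats, lower in sham-operated rats and lowest in naive rats. They were chosen on the measured values. The mean over the deep brain stimulation (DBS) arrays had to exceed the naive mean by at least 0.8, each step (DBS over sham, sham over naive) had to be at least 0.25, and the lowest DBS array had to lie above the highest naive array. With near-identical rows merged, the 377 rows made 252 distinct profiles. They are called rising rows below, for a higher level in sham than in naive rats and a higher level again in DBS rats. The differences between groups therefore describe the choice and are given without a test.

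Each array held a pool of hippocampi from 3 male albino Wistar rats, 12 weeks of age, labelled with Cy5, against Cy3-labelled RNA pooled from hippocampus, thalamus and cortex of stimulated, sham-operated and naive rats. The 4 DBS pools came from rats whose ventrolateral thalamus was stimulated for 1 hour daily over 14 days. The 4 sham pools came from rats that carried an electrode and received no current, and the 3 naive pools from naive rats; both groups were handled like the stimulated rats. DBS against sham thus compares stimulation with an electrode alone, and sham against naive compares an electrode alone with naive rats. The naive arrays are described in the labels as numbered out of 4, and 3 are analysed here. Dyes were not swapped, and the labels name no slide or scan batch, so the part of a batch in the differences was not tested. The labels count pools as biological replicates. The p-values rest on 1 estimate of the spread between pools for each row, shared by the 3 groups and adjusted towards that of the other rows. This takes the spread as equal in the 3 groups, which differed in spread in the rising rows, as described below.

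The ventrolateral thalamus relays signals from the cerebellum and basal ganglia to the motor cortex. In the rat, the dorsal hippocampus, which serves spatial and episodic-like memory, lies directly above the thalamus, and the labels place the dissection at levels of the brain where both are present. The route of the electrode is not described in the labels. High-frequency current is known to change the firing of neurons near the contact and of those connected to them.

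A value is the deposited log ratio of a row on 1 array, taken as log2; a value of 0 means equal signal in the hippocampal pool and the reference. The labels name no log base, and the direction, hippocampus over reference, is taken from the wording of the labels. If the ratio were deposited the other way round, the rising rows would be falling rows. The value table pairs its row numbers with no gene. The platform's annotation was not used for names: within each of the 9 sets of near-identical rows described below, the rows it lists carry different accessions (41 accessions for 41 listed rows). Gene groups, cell type markers and sequences could therefore not be given for the rising rows. In pooled tissue, a change in the number of cells of a type and a change in RNA per cell cannot be told apart.

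On the DBS arrays the median log2 ratio over the 377 rising rows was 0.65, 0.63, 0.74 and 0.44 (replicates 1 to 4). On the sham arrays it was 0.10, 0.10, -0.15 and -0.11, and on the naive arrays it was -0.54, -0.55 and -0.56. Every DBS array lay above every sham array in this median, and every sham array above every naive array. The median over all 45220 rows stayed between -0.00589 and 0.00535 on each array. Averaged over the rising rows, the 4 DBS arrays stood at 0.66 ± 0.19, the 4 sham arrays at -0.07 ± 0.16 and the 3 naive arrays at -0.69 ± 0.03 (SD between arrays). The difference was 1.35 (SE 0.10) for DBS minus naive, 0.73 (SE 0.12) for DBS minus sham and 0.62 (SE 0.08) for sham minus naive. The SEs reflect the spread between arrays only. They make no allowance for the choice of rows on these same differences and serve as no test. With 1 value per profile, these differences were 1.30, 0.69 and 0.61. Similar rows that merge only at a wider distance still count separately there.

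**Figure D1:**
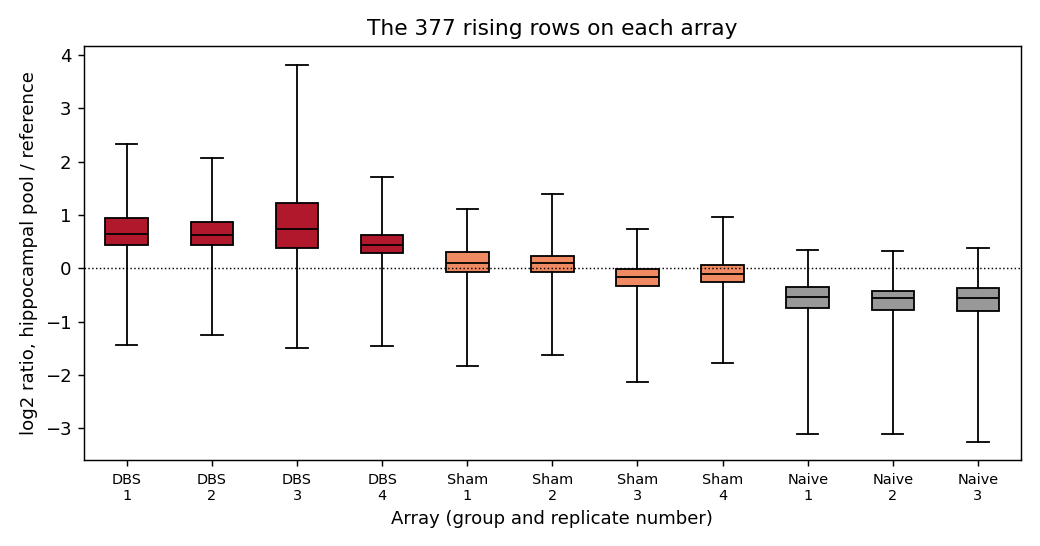
Log2 ratio of the 377 rising rows on each of the 11 arrays (boxes, quartiles with the median as a line; whiskers, lowest and highest row; dotted line, equal to the reference). The medians are 0.44 to 0.74 on DBS arrays, -0.15 to 0.10 on sham arrays and -0.56 to -0.54 on naive arrays.

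Most rising rows crossed the level of the reference. The DBS mean was above 0 and the naive mean below 0 for 350 of the 377 rows (92.8%, against 12.2% of all rows), and for 234 of the 252 profiles. A DBS minus naive difference of at least 0.8, as the rule required, favours such a crossing, so these shares describe the choice. The sham mean was above 0 for 187 of the 377 rows. In 22 rows even the DBS mean stayed below the reference, and in 5 rows the mean was above it in all 3 groups. The reference itself held RNA of all 3 groups and of other brain regions, so 0 is no baseline of the hippocampus.

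The DBS minus naive difference of the rising rows ran from 0.80 to 4.74, with a median of 1.12 (quartiles 0.94 and 1.46); over all rows the median was -0.02. It was at least 1 in 247 rows, at least 2 in 46 rows and at least 4 in 10 rows. Taken as the mean of each merged profile, the difference reached these sizes in 164, 26 and 2 profiles. The median step was 0.59 for DBS over sham and 0.55 for sham over naive. The DBS step was the larger of both in 232 rows (61.5%), and the sham step was at least as large in 145 (38.5%). The sham step made up 0.463 of the whole DBS minus naive difference in the median row, and 0.169 to 0.786 over all rising rows; the step thresholds keep this share away from 0 and 1.

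**Figure D2:**
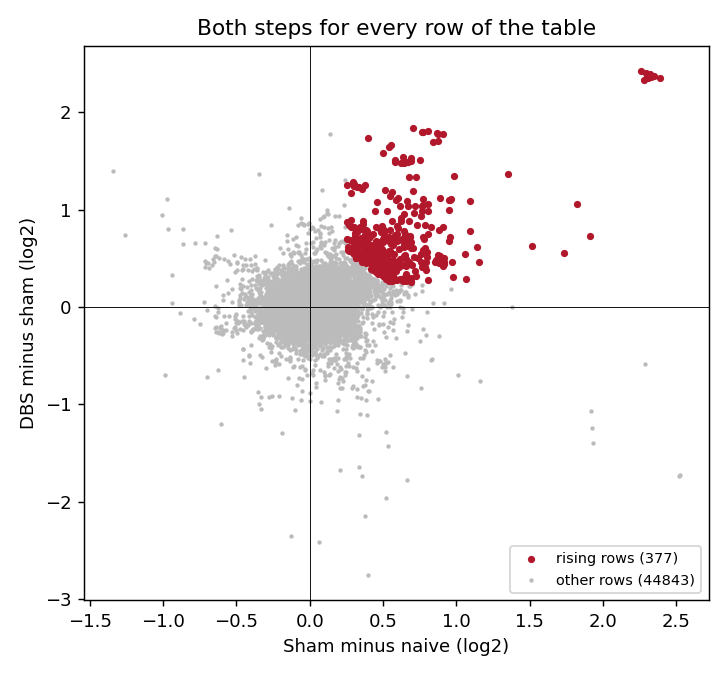
DBS minus sham against sham minus naive for every row (log2; red, the 377 rising rows; grey, all other rows). The rising rows fill the upper right by construction; 10 rows stand apart at the far corner, with both steps above 2.

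The same rule turned round, for rows falling from naive over sham to DBS, kept 26 rows in 23 profiles. At the wide gap alone, 435 rows were at least 0.8 higher in DBS than in naive without overlap, and 44 rows were at least 0.8 lower. Of the 435 rows, 42 were left out for a sham step under 0.25 and 16 for a DBS step under 0.25, so 377 met both. The requirement that DBS and naive arrays do not overlap removed no further row. Near the thresholds, 27 rows lay within 0.05 above the 0.8 limit and 23 within 0.05 below it. The nearest row inside stood at 0.8032 and the nearest outside at 0.7995. For the sham step the nearest rows stood at 0.2512 and 0.2480, and for the DBS step at 0.2606 and 0.2387.

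The order of the groups was then read on arrays left out when the rule was applied. Its thresholds were set with results of these data known, so the arrays left out are not independent of the rule. For each of the 48 ways to leave out 1 DBS, 1 sham and 1 naive array, the rule was applied to the other 8 arrays, and it kept 342 to 402 rows. On the 3 arrays left out, DBS was above sham and sham above naive in 93.8% of those rows on average (81.9% to 98.9% over the 48 ways). Over all 45220 rows the same order was found in 17.9% (15.99% to 20.7%). Taken singly, the left-out DBS array exceeded the left-out sham array in 95.2% of the chosen rows, against 47.8% of all rows, and the left-out sham array exceeded the left-out naive array in 98.5%, against 48.3%.

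The median DBS minus sham difference was 0.58 on the left-out arrays and 0.61 on the choosing arrays (medians over the 48 ways), and the median sham minus naive difference was 0.55 on the left-out arrays and 0.54 on the choosing arrays. Single ways ran wider: for DBS minus sham, 0.30 to 0.86 on the left-out arrays against 0.52 to 0.66 on the choosing arrays, and for sham minus naive, 0.32 to 0.71 against 0.50 to 0.60. The left-out DBS minus sham difference had its lowest median, 0.41, where DBS replicate 4 was left out and its highest, 0.80, where sham replicate 3 was. The left-out sham minus naive difference had a median of 0.38 where sham replicate 3 was left out and 0.64 where sham replicate 2 was. The lowest share in order, 81.9%, came from leaving out DBS replicate 3, sham replicate 2 and naive replicate 2. The 48 ways share arrays, and the thresholds were set with results of these data known, so the shares are given without a test.

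**Figure D3:**
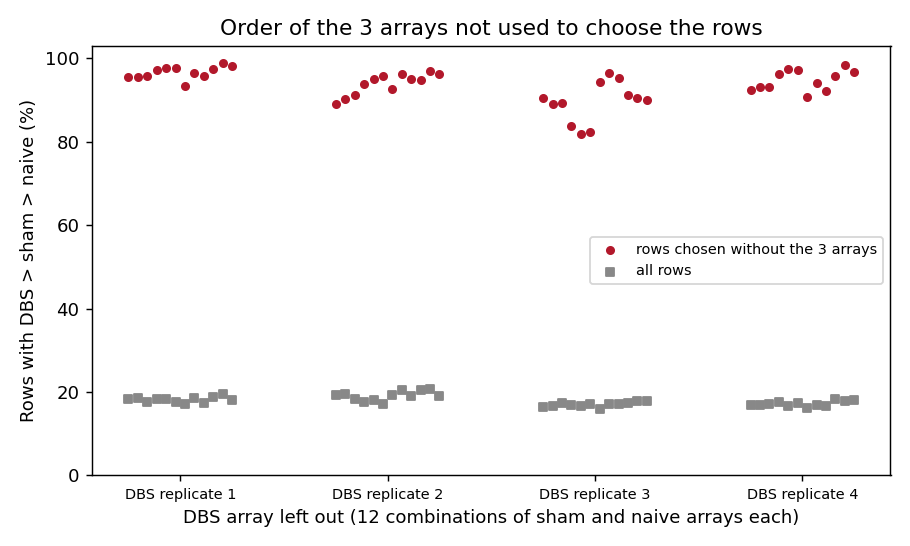
Share of rows with DBS above sham above naive on 3 arrays left out when the rule was applied, by the DBS array left out. Each DBS array has 12 combinations of sham and naive arrays (red circles, rows chosen on the other 8 arrays, and grey squares, all rows). The chosen rows lie at 81.9% to 98.9% and all rows at 15.99% to 20.7%.

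Across the whole table, limma called 4.60% of rows higher in DBS than in naive, 1.94% higher in DBS than in sham and 0.734% higher in sham than in naive (adjusted p under 0.05). Of the 377 rising rows, 375 were called higher in DBS than in naive, 278 higher in DBS than in sham and 171 higher in sham than in naive; none was called lower. The rule used these contrasts, so the counts describe the rows and nothing is read from them. They hold 31.7% of all rows called higher in DBS than in sham and 51.5% of those called higher in sham than in naive. The 171 calls depended on single arrays. Leaving out sham replicate 1, 2, 3 or 4 gave 58, 76, 215 or 92 calls. Leaving out naive replicate 1, 2 or 3 gave 56, 34 or 40. Without DBS replicate 1, 2, 3 or 4 there were 129, 167, 234 or 211, and array weights gave 250. Over all rows, 332 were called higher in sham than in naive. That number moved too, to 105, 127, 487 or 145 without sham replicate 1, 2, 3 or 4, and to 92, 61 or 78 without naive replicate 1, 2 or 3. Without DBS replicate 1, 2, 3 or 4 it was 228, 347, 444 or 371, and with array weights 564.

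The arrays of the groups were apart in most of the rising rows. The rule required a step between neighbouring groups, which favours this, so the counts below describe the choice. DBS and sham arrays did not overlap in 281 of the 377 rows, where 4.76% of all rows had DBS above sham without overlap. Sham and naive arrays did not overlap in 359 rows, against 6.26% of all rows. All 3 groups were apart in the order DBS, sham, naive in 268 rows, against 1.34% of all rows, and these 268 are 44.2% of all such rows in the table. Between DBS and naive no row overlapped, as the rule required; 8.99% of all rows meet this.

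Many rising rows had near-identical values on all arrays, and these are described together. Merging used a Euclidean distance of 0.3 over the 11 arrays. Of the 377 rows, 190 stood alone, 116 lay in 53 profiles of 2 or 3 rows, and 71 lay in 9 sets of 5 to 10 rows, named A to I by the size of the DBS minus naive difference. Within a set, the SD between rows averaged 0.035 to 0.045 per array. At a wider distance of 0.5, 6 groups held exactly 10 rows each. The rows of a set were scattered over the table, with no pair of neighbouring row numbers in any set, and each eighth of the table held 41 to 53 of the rising rows.

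Set A, 7 rows, had the widest range. Its mean log2 ratio was 1.60, 2.02, 2.52 and 0.27 on the DBS arrays, 0.62, -0.61, -1.44 and -1.67 on the sham arrays, and -3.07, -3.05 and -3.11 on the naive arrays. DBS replicate 4 fell below sham replicate 1, so DBS and sham overlapped, while every sham array lay far above the naive arrays. Row 27095 belongs to a profile of 3 rows that joined set A at the distance of 0.5. It read 1.63, 1.99, 2.55 and 0.24 on the DBS arrays, 0.61, -0.55, -1.39 and -1.66 on the sham arrays, and -3.10, -3.06 and -3.24 on the naive arrays. The spread was wide among DBS arrays (SD 0.98) and sham arrays (SD 1.02) and narrow among naive arrays (SD 0.10). Its level was 26.7-fold higher in DBS than in naive, 5.10-fold higher in DBS than in sham and 5.23-fold higher in sham than in naive. Its DBS minus naive difference of 4.74 was the largest of the rising rows.

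Row 19326 stood alone and, outside set A and the profile that joins it, had the widest gap between DBS and naive arrays among the rows outside the sets. It read 1.20, 0.91, 0.80 and 0.40 on the DBS arrays, 0.13, -0.20, -0.44 and -0.43 on the sham arrays, and -1.83, -2.25 and -2.09 on the naive arrays. All 3 groups were apart, and the lowest DBS array was 2.24 above the highest naive array. Here the sham step was the larger one, 1.82 against a DBS step of 1.06. The levels were 7.39-fold higher in DBS than in naive.

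In sets B and C the DBS step, 1.51 and 1.24, was the larger part. Set B, 8 rows, had 1.75, 1.73, 2.44 and 0.60 on the DBS arrays, 0.41, -0.29, 0.66 and -0.31 on the sham arrays, and -0.59, -0.49 and -0.47 on the naive arrays. DBS replicate 4 lay just below sham replicate 3. Set C, 8 rows, had 1.47, 1.42, 1.72 and 0.58 on the DBS arrays, 0.24, 0.15, -0.33 and 0.15 on the sham arrays, and -0.15, -0.36 and -0.23 on the naive arrays. Sham replicate 3 lay at the level of the naive arrays, and the sham step of 0.30 was close to the 0.25 limit. A further 2 rows within the merging distance of this set were not kept. Which criterion they missed was not looked at.

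Sets D and E changed by similar amounts in total, 1.37 and 1.34 for DBS minus naive. Set D, 8 rows, had 0.56, 0.63, 0.77 and 0.44 on the DBS arrays, -0.07, 0.22, -0.33 and -0.18 on the sham arrays, and -0.70, -0.77 and -0.84 on the naive arrays, with a DBS step of 0.69 and a sham step of 0.68. Set E, 8 rows, had 0.54, 0.71, 0.39 and 0.51 on the DBS arrays, 0.08, 0.22, -0.10 and 0.05 on the sham arrays, and -0.89, -0.73 and -0.80 on the naive arrays, with a DBS step of 0.47 and a sham step of 0.87. Arrays of different groups did not overlap in either set. The sham level of set E was thus nearer to its DBS level, and that of set D about midway.

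Sets F to I had DBS minus naive differences from 1.17 to 0.90. Set F, 7 rows, had 0.83, 0.72, 1.38 and 0.62 on the DBS arrays, 0.12, 0.21, -0.04 and -0.05 on the sham arrays, and -0.25, -0.28 and -0.31 on the naive arrays. Set G, 10 rows, stayed below the reference in every group, with -1.26, -1.04, -1.0035 and -1.41 on the DBS arrays, -1.61, -1.55, -1.74 and -1.59 on the sham arrays, and -2.09, -2.27 and -2.22 on the naive arrays. Both sets kept the groups apart. The steps of set G depended on the scaling: its sham step was 0.57 and its DBS step 0.44 as deposited, while quantile normalization, tried after seeing the data, gave 0.38 and 0.51.

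Set H, 10 rows, had 0.53, 0.61, 0.45 and 0.32 on the DBS arrays, 0.02, 0.07, -0.21 and -0.08 on the sham arrays, and -0.40, -0.50 and -0.41 on the naive arrays, again without overlap. Set I, 5 rows, had 0.36, 0.52, -0.03 and 0.25 on the DBS arrays, -0.12, 0.04, -0.43 and -0.09 on the sham arrays, and -0.58, -0.70 and -0.61 on the naive arrays. The lowest DBS array of set I, replicate 3, lay below sham replicate 2. The same array was the highest DBS array in sets A, B, C, D, F and G, and the lowest in sets E and I.

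**Figure D4:**
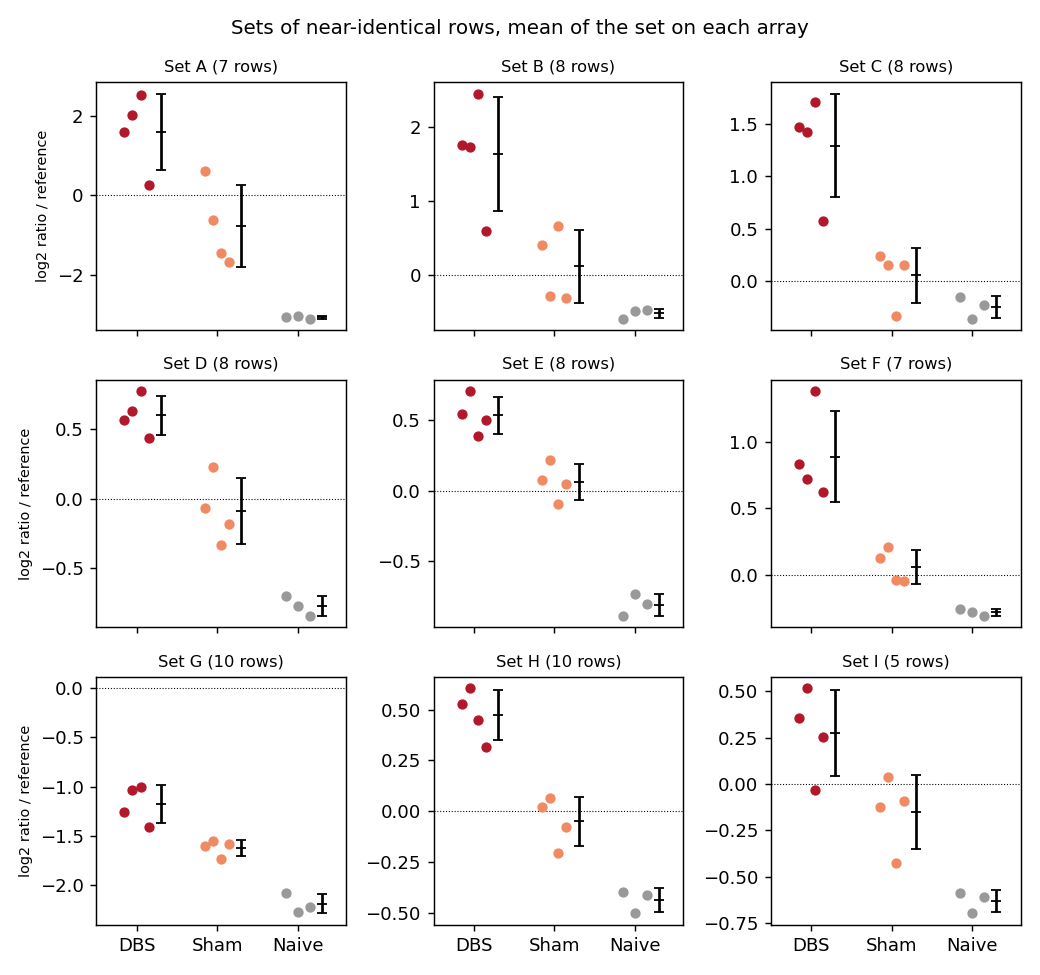
Mean log2 ratio of each of the 9 sets of near-identical rows on every array (points, in replicate order within a group; bars, group mean ± SD, n = 4, 4 and 3; each panel has its own scale; dotted line, equal to the reference). In all panels the naive arrays are lowest on average and the DBS arrays highest; arrays of neighbouring groups overlap in sets A, B, C and I.

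A group of 9 rows was marked by DBS replicate 3. These rows fell into 5 profiles at the merging distance of 0.3 and into 1 group at 0.5. Their mean was 1.71, 1.42, 3.69 and 0.98 on the DBS arrays, 0.64, 0.29, -0.01 and -0.24 on the sham arrays, and -0.74, -0.46 and -0.76 on the naive arrays. DBS replicate 3 was thus far above the other DBS arrays, and all DBS arrays were above all sham arrays. A group of 7 rows had the same feature at a lower level, with 2.58 on DBS replicate 3 against 0.47 to 1.01 on the other DBS arrays. Its means on the sham arrays were 0.34, 0.01, -0.05 and -0.06, and on the naive arrays -0.57, -0.50 and -0.73.

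Among the further single rows, that with the highest DBS minus naive difference, 2.72, had 1.63, 1.56, 2.24 and 1.15 on the DBS arrays, 1.12, 0.53, -0.51 and -0.03 on the sham arrays, and -0.92, -1.15 and -1.15 on the naive arrays. Its sham arrays spread widely, the highest just below the lowest DBS array. Another, with a difference of 2.64, had 0.49, 0.30, 0.53 and -0.72 on the DBS arrays, -0.08, -0.73, -0.41 and -1.11 on the sham arrays, and -2.52, -2.58 and -2.38 on the naive arrays. Its sham step of 1.91 was larger than its DBS step of 0.74, and DBS replicate 4 lay among the sham arrays.

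Spread between arrays differed by group in the rising rows. The median SD of a rising row was 0.22 between DBS arrays, 0.17 between sham arrays and 0.07 between naive arrays, while over all rows it was 0.08, 0.07 and 0.07. The SD was larger in DBS than in naive for 346 of the 377 rows (91.8%, against 62.6% of all rows), and larger in sham than in naive for 335 (88.9%, against 57.2%). For comparison, the 42 rows with a wide gap but a sham step under 0.25 had median SDs of 0.29 in DBS, 0.10 in sham and 0.07 in naive. The 26 falling rows had 0.17, 0.13 and 0.11. These spreads are given as a description, with no test.

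The arrays of a group took the same order in many rows. DBS replicate 4 was the lowest DBS array in 234 of the 377 rows (62.1%, against 24.96% of all rows), and replicate 3 was the highest in 222 (58.9%, against 24.6%). Among sham arrays, replicates 1 and 2 were the highest in 150 and 201 rows (39.8% and 53.3%, against 24.1% and 27.5% of all rows). Replicates 3 and 4 were the lowest in 234 and 127 (62.1% and 33.7%, against 26.6% and 24.1% of all rows). The leading principal component held 64.7% of the squared deviations of the rising rows from their group means and 61.5% over merged profiles, against 20.9% over all rows. With each row scaled to equal weight, so that rows of wide spread do not dominate, it held 45.7% of the rising rows' deviations, against 20.3% over all rows. Counted over profiles, DBS replicate 4 was lowest in 145 of 252 and sham replicate 3 in 148 of 252.

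DBS replicate 3 divided the rising rows. It was the lowest DBS array in 95 rows (67 profiles). In those 95 rows sham replicate 2 was the highest sham array in 83 and sham replicate 3 the lowest in 89. In the 234 rows where DBS replicate 4 was lowest, sham replicate 2 was highest in 102 and sham replicate 1 in 113, and the lowest sham array was replicate 3 in 120 and replicate 4 in 104. The median of the 95 rows was 0.51, 0.59, 0.25 and 0.48 on the DBS arrays, 0.06, 0.20, -0.19 and 0.05 on the sham arrays, and -0.61, -0.64 and -0.58 on the naive arrays. The median of the 234 rows was 0.73, 0.66, 0.88 and 0.42 on the DBS arrays, 0.11, 0.07, -0.14 and -0.15 on the sham arrays, and -0.49, -0.53 and -0.53 on the naive arrays. Sham replicate 4 was at or above 0 in the median of the first kind of row and below 0 in that of the second. The split was made after the values were seen and rests on the DBS arrays. Sham and naive values did not enter the split, but they entered the rule that chose the rows. Near-identical rows count separately in these counts, which are given as a description with no test.

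**Figure D5:**
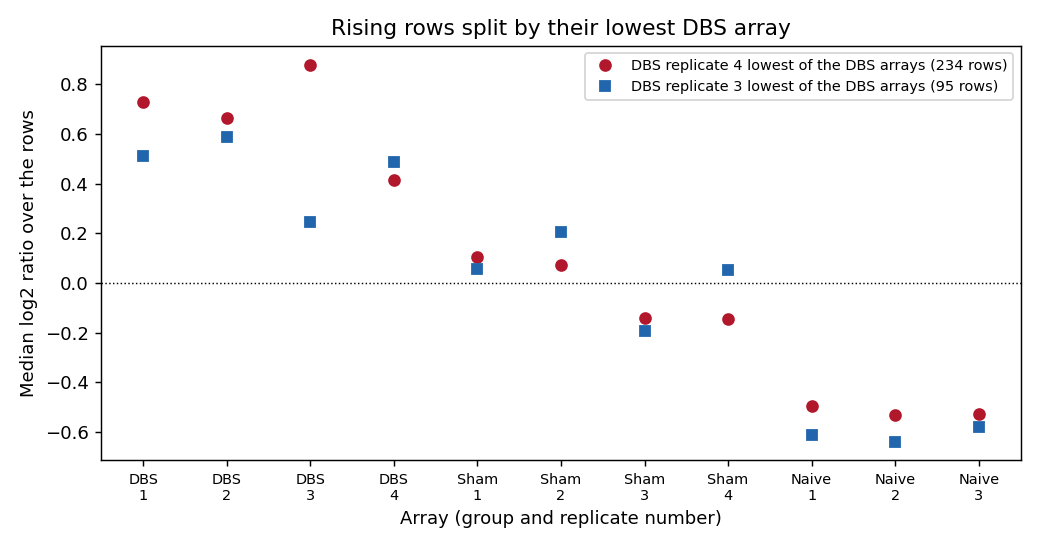
Median log2 ratio on each array over the rising rows whose lowest DBS array was replicate 4 (red circles, 234 rows) or replicate 3 (blue squares, 95 rows). The DBS values differ by construction; on sham replicate 4 the medians are -0.15 and 0.05.

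Leaving out single arrays changed the number of rows little, but 75 of the 377 rows (19.9%) were lost at least once. Without any 1 of the 11 arrays the rule kept 357 to 389 rows, and 302 of the 377 rows (80.1%) were kept every time. The 75 rows lost at least once had a median DBS minus naive difference of 0.88, against 1.20 for the 302 kept rows. Quantile normalization between arrays kept 379 rows, of which 373 were among the 377.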

How the data were processed

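RNA of 11 hippocampal pools was measured on 2-channel arrays against a common reference; the groups were DBS (4 arrays), sham (4) and naive (3), taken from the labels' titles. Amplified RNA was labelled with Cy5 (hippocampus) or Cy3 (reference), per the labels' protocols. The authors deposited 1 log ratio per row and array, taken here as log2; the labels name no background correction, normalization or spot filter. The values lay between -4.59 and 4.52 with none missing, and all 55 pairs of arrays correlated between 0.732 and 0.932. The number of arrays limits the precision.

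No row was filtered. Group means were fitted for all 45220 rows over all arrays with limma 3.58.1 (lmFit, eBayes) in R 4.3.3. Tests were two-sided, with Benjamini-Hochberg adjustment over all rows at 0.05. The fit was run on simulated data with independent rows and equal spread in all groups. That run does not cover repeated rows, deviations shared between rows or unequal spread. Near-identical rows were merged by complete linkage at a Euclidean distance of 0.3 (scipy 1.17.1). Profiles of 5 or more rows are described as sets; row numbers are printed for the row outside them with the largest DBS minus naive difference and, outside that row's profile, the row with the widest gap, and further profiles by rank of that difference. The groups of 9 and 7 rows, the split by lowest DBS array and the spread by group were chosen after seeing the data. The rule, the rows and the tests were chosen with earlier results of these data known. Alternatives were other scalings, thresholds, merging distances, fits and leaving out each array.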

Additional observations from a re-analysis of the deposited data

Results flagged for a closer look

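In set C, 8 near-identical rows, sham replicate 3 stood apart from the other sham arrays, at -0.33 against 0.24, 0.15 and 0.15; its gap to the nearest of them was 0.844 of the group's range, above Dixon's critical value at 95% for 4 samples. It was the only one of 42 groups of 4 arrays looked at (the DBS and sham arrays of the sets, the named rows, the further profiles and the mean and median over the rising rows), and chance alone flags about 1 in 20.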

How the results depend on the processing

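Of the alternatives for the choice of rows, a DBS minus naive threshold of 1.0 moved the count by over 1.5 times, to 247 rows, and merging at a distance of 0.5 gave 152 profiles; a threshold of 0.6 gave 499 rows, and dropping the overlap criterion left 377. Leaving out single arrays gave 357 to 389 rows and 220 to 244 profiles. The rule fixes the direction of the mean differences over the rising rows; without single arrays their sizes were 1.28 to 1.43 for DBS minus naive, 0.66 to 0.81 for DBS minus sham and 0.57 to 0.67 for sham minus naive. The order on left-out arrays held in 93.1% of profiles and, after quantile normalization, in 94.0% of rows. Over all rows, limma called 3694 between DBS and naive, 1275 between DBS and sham and 421 between sham and naive. For DBS against sham, a fit without the naive arrays gave 806. For sham against naive, a fit without the DBS arrays gave 542 and array weights gave 760. The causes of these changes were not tested. Without single arrays the counts ran, in DBS against sham, between 784 and 1297 (816 without DBS replicate 1, 814 and 784 without sham replicates 3 and 4), in sham against naive between 87 and 575 (127, 165 and 171 without sham replicates 1, 2 and 4, 109, 87 and 87 without naive replicates 1, 2 and 3) and in DBS against naive between 2083 and 3717 (2083 and 2339 without naive replicates 2 and 3). With the replicate number as a block, limma called 2807 rows between DBS and naive, 892 between DBS and sham and 319 between sham and naive, in either direction. Called higher in the group named first were 1783, 679 and 283 of all rows, and 374, 272 and 187 of the rising rows. The labels pair no arrays, and deviations of same-numbered arrays correlated between -0.12 and 0.15, over 0.1 in 2 of 10 pairs. Quantile normalization, added for the sets after seeing the data, moved the sham minus naive difference of set G to 0.38, against 0.57 as deposited, and its DBS minus sham difference to 0.51, against 0.44.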
